A study of Mus musculus with 18 samples.

Results

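CXC chemokines are small secreted proteins that steer leukocytes through G protein-coupled receptors. Members that carry the ELR motif, *Cxcl1*, *Cxcl2*, *Cxcl3* and *Cxcl5*, act on CXCR2 and draw neutrophils, whereas *Cxcl9*, *Cxcl10* and *Cxcl11* are interferon-inducible ligands of CXCR3 that draw activated T cells and natural killer cells. *Cxcl16* encodes a membrane-anchored ligand of CXCR6, *Pf4* encodes platelet factor 4 and *Cxcl14* encodes a chemokine best known from epithelia. The 10 genes were taken by symbol from a table of 62197 genes, and 9 of them passed a filter on low values, which asked for 10 or more normalized counts in 3 or more libraries.

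The libraries were made from bulk RNA of bone marrow-derived DCs grown for 10 days with GM-CSF, from young adult mice on a C57BL/6 background with intact cPLA2 (WT, littermates or age-matched) or with a conditional *Pla2g4a* allele crossed to *Itgax-cre* (KO), so that deletion was directed to cells expressing *Itgax*. Immature nonconfined cells were taken directly when the culture ended, and immature confined cells were taken 4 h after being placed under a 3 µm ceiling, so that confinement and the additional hours cannot be told apart. A further set of nonconfined cells was activated with LPS, a bacterial ligand of TLR4, at 100 ng/ml for 30 min, washed and collected on the following day. The 30 min are those of the sample labels, and the methods of the study give a slightly shorter exposure. Each of the 6 conditions had 3 libraries, 18 in all, which the study describes as biological replicates without naming the mice or cultures behind them. Where they share a culture, p-values measure only the spread between libraries. Between 33027230 and 61300021 reads per library were assigned to genes, with a median of 40950397.5. Of the counts of 20 or fewer, 75.7% were even, as when both mates of a pair are counted. Values are normalized counts, that is, read counts divided by a size factor of the library, and are not scaled for gene length.

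The knocked-out gene was read in every library. *Pla2g4a* stood at 697, 686 and 770 normalized counts in nonconfined WT libraries and at 548, 542 and 533 in nonconfined KO libraries. It stood at 1369, 1430 and 1321 in confined WT and at 923, 871 and 920 in confined KO libraries. The KO libraries lay below the WT libraries in both conditions without overlap, and the counts cover the whole gene. Which exons were deleted is not given in the sources used here. In libraries labelled LPS WT it stood at 1005, 969 and 967, and in those labelled LPS KO at 1065, 1032 and 1028, so the libraries labelled KO were the higher ones.

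The Y-linked gene *Ddx3y* was at 3.05 normalized counts or less in the nonconfined and confined WT libraries and between 874 and 1036 in the nonconfined and confined KO libraries. The sex of the donor mice and the genotype cannot be told apart in these conditions. In the LPS libraries *Ddx3y* did not follow the labels: it was at 1271, 0 and 662 in those labelled WT and at 2.12, 1476 and 783 in those labelled KO. Some LPS libraries were closer to a library of the other label than to those of their own. The mean chi-square per gene was 5.45 between WT replicate 2 and KO replicate 1 and 6.59 between WT replicate 3 and KO replicate 3, against 10.6 to 48.6 between libraries of the same LPS label. The other pairs across labels lay between 13.7 and 44.7, and WT replicate 1 and KO replicate 2 were each closest to a library of their own label. In the other conditions, pairs within a condition reached 18.1. No library pair fell within sampling noise, the lowest value of a pair within a condition being 4.09, so all 18 were kept. LPS libraries are therefore named by their label, and LPS is described mainly by the average of both labels.

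The cells expressed markers of DCs, with *Itgax*, which encodes CD11c, between 4194 and 7192 normalized counts in all libraries and *Zbtb46*, a transcription factor of conventional DCs, between 468 and 1379. Of 8 dendritic cell markers, led by *Cd74*, 1 was called higher and 1 lower with confinement in WT, and 0 and 1 in KO cells. The gene lower in both genotypes was *Flt3*, and the gene higher in WT was *Ccr7*, a homing receptor of mature DCs. In confined cells *Ccr7* was the 1 dendritic marker called lower in KO than in WT, and 0 were higher. The culture also yields granulocytes and macrophages, which the study removed by how firmly cells stick to the plate. Markers of macrophages were nevertheless present in all libraries, with *Adgre1* between 5676 and 14322 and *Cd68* between 9872 and 17955 normalized counts. The dendritic marker *Flt3* lay between 27.0 and 166. Which part of the RNA came from macrophages was not tested. Markers of granulocytes were present as well and differed between the genotypes.

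The 8 neutrophil markers, of which *S100a9* was the most abundant, summed to 236788, 242143 and 240268 normalized counts in nonconfined WT and to 368522, 331317 and 356408 in nonconfined KO libraries. They summed to 154960, 147839 and 145546 in confined WT and to 333133, 346176 and 330092 in confined KO libraries. The KO sums lay above the WT sums in both conditions, and 2 of the 8 markers in nonconfined and 5 in confined cells were called higher in KO. The 7 eosinophil markers, led by *Prg2*, summed to 32424, 32355 and 32256 in nonconfined WT and to 82392, 76342 and 78428 in nonconfined KO libraries. With confinement they summed to 8335, 8072 and 7894 in WT and to 23962, 23759 and 24620 in KO libraries. Of the 7, 6 were called higher in KO in nonconfined cells, and 6 higher and 1 lower in confined cells. The 8 mast cell and basophil markers, led by *Cpa3*, summed to 9165, 9189 and 9283 in nonconfined WT, 14093, 13451 and 13600 in nonconfined KO, 3514, 3350 and 3482 in confined WT and 6217, 5994 and 6237 in confined KO libraries, and 4 of them were called higher in KO in confined cells. In nonconfined cells 0 of the 8 were called. The sums of all 3 lists lay above WT in KO libraries in both conditions, and none of their genes was at 0 in any library.

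The same lists also moved with confinement. Of the neutrophil markers 3 were called lower in WT and 0 in KO cells, of the mast cell and basophil markers 6 in either genotype, and of the eosinophil markers 6 in WT and 5 in KO cells, with *Ccr3* called higher in WT. Of 8 macrophage markers, led by *Cd68*, 1 was called lower with confinement in WT and 3 in KO cells, and 1, *Fcgr1*, was lower in KO than in WT in confined cells. Of 8 fibroblast and stromal markers 6 were tested, and 3 were called higher and 1 lower with confinement in WT, and 2 and 0 in KO cells. In confined cells 1 of these markers was called higher and 2 lower in KO than in WT. Their sums were 826, 872 and 805 in nonconfined WT, 1472, 1413 and 1352 in nonconfined KO, 9697, 9346 and 9291 in confined WT and 4011, 4064 and 4042 in confined KO libraries. Nearly all of this was *Pdpn*, which activated myeloid cells also express, at 9557, 9193 and 9133 in confined WT libraries. *Pdgfrb*, a receptor of mural and stromal cells, was at 7.62, 11.9 and 15.7 in nonconfined WT, 22.7, 13.0 and 15.5 in nonconfined KO, 64.7, 58.3 and 94.8 in confined WT and 7.55, 4.27 and 14.6 in confined KO libraries, with an interaction of -3.54 ± 0.50 (limma, adjusted p = 1.07e-05). *Pdgfra* was called higher with confinement in both genotypes, by 2.48 ± 0.64 in WT and 3.09 ± 0.64 in KO cells, and did not exceed 43.2 normalized counts in any library. *Col1a1* ran the other way and was called lower with confinement in WT, at -1.15 ± 0.23. In confined cells it was called higher in KO than in WT, by 1.51 ± 0.23. *Dcn* and *Lum*, which also define stromal cells, did not exceed 8.08 and 4.58 normalized counts in any library and were at 0 in all nonconfined WT libraries. In bulk RNA, fewer cells of a type and less RNA per cell cannot be told apart, and the part of the cells behind these markers in the results on chemokines was not tested.

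Confinement of WT cells was compared with nonconfined WT cells to ask which chemokine genes respond to a tight space. Calls came from limma on log2(normalized count + 1), a scale that understates the change of low genes, and needed an adjusted p below 0.05 together with a log2 fold change beyond 1 in either direction. All 9 genes that passed the filter were called higher and 0 lower, where 11.4% of the 17875 genes tested were called higher and 7.62% lower. The median log2 fold change was 6.63 over these 9 genes and -0.01 over all genes tested. *Cxcl1*, *Cxcl5*, *Cxcl9* and *Cxcl11* were near the filter or under it in nonconfined cells, and those that passed it only through the groups where they were high had to differ. The same limit holds for the counts of called members in the comparisons below, the interaction among them.

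In KO cells, 6 of the 9 genes were called higher with confinement and 0 lower, where 6.43% and 5.53% of all genes tested were called. Their median log2 fold change was 1.25, against 0.01 over all genes. The change under confinement was lower in KO than in WT cells, as a tested interaction of confinement and genotype, for 7 of the 9 genes and higher for 0, where 6.56% and 1.11% of all genes were called. The ligands of CXCR2, the ligands of CXCR3, *Cxcl16* and the platelet chemokines are taken in turn.

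**Figure D1:**
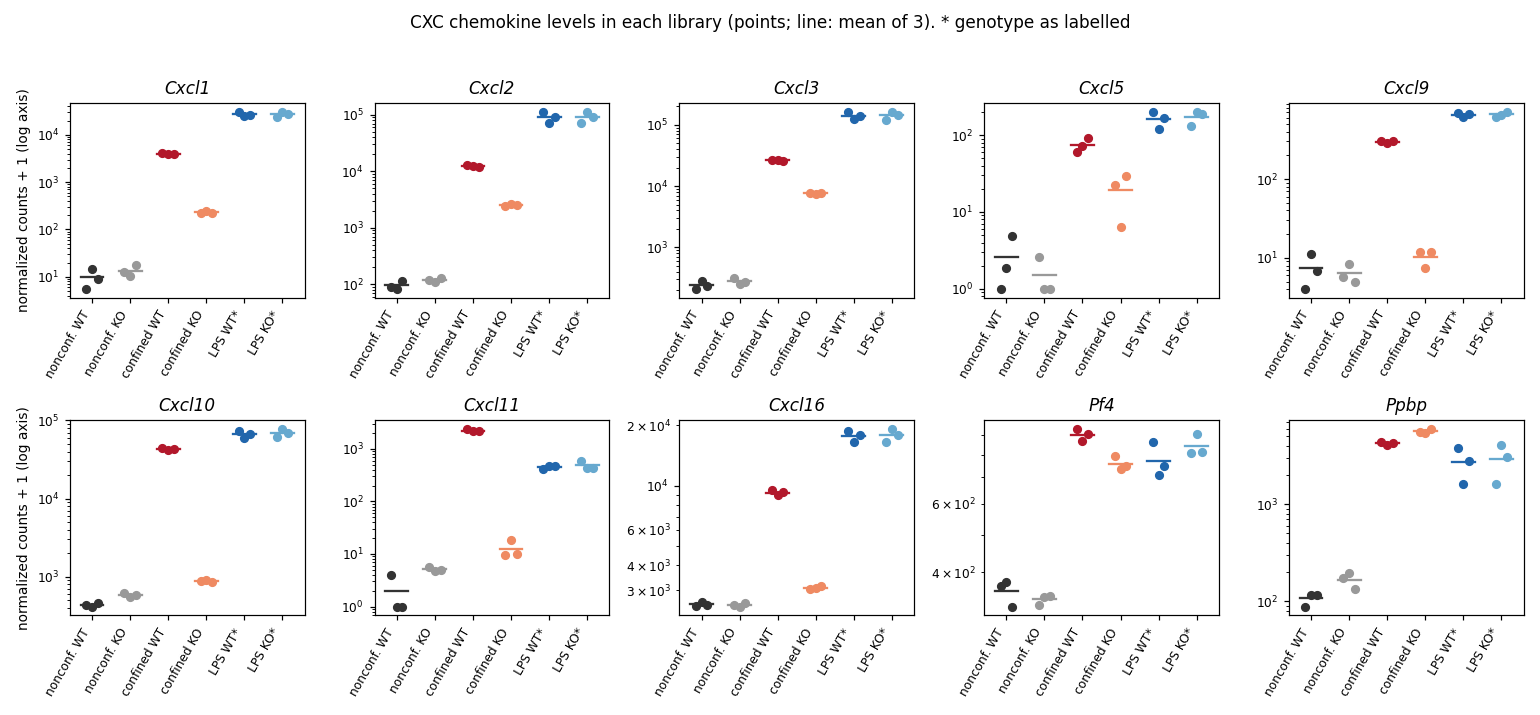
Normalized counts plus 1 on a log axis for 9 CXC chemokine genes and *Ppbp*; each point is a library and each line the mean of 3 libraries, with LPS groups named by label. Confined WT libraries lie above confined KO libraries for every gene shown except *Ppbp*.

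Among the ELR chemokines, *Cxcl1*, a neutrophil attractant, was at 4.57, 13.6 and 7.86 normalized counts in nonconfined WT libraries and at 4173, 3904 and 3909 in confined WT libraries. In KO libraries it was at 11.8, 9.31 and 16.5 without and at 220, 240 and 223 with confinement. Confined groups lay above nonconfined groups in both genotypes without overlap, and confined KO libraries lay far below confined WT libraries. The log2 fold change was 8.80 ± 0.22 (SE, n = 3) in WT and 4.11 ± 0.22 in KO cells, and the interaction was -4.68 ± 0.31 (limma, adjusted p = 1.23e-10).

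*Cxcl2*, another CXCR2 ligand made early by activated myeloid cells, was at 89.9, 81.9 and 114 normalized counts in nonconfined WT and at 12826, 12192 and 12004 in confined WT libraries. The KO libraries held 118, 110 and 126 without and 2407, 2594 and 2507 with confinement. The mean level was 130-fold higher with confinement in WT and 21.2-fold higher in KO cells, and no confined library overlapped a nonconfined one. The interaction was -2.62 ± 0.21 on the log2 scale (limma, adjusted p = 1.74e-09).

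*Cxcl3*, closely related to these, had the highest summed counts of all members over the 18 libraries. It was at 210, 282 and 235 normalized counts in nonconfined WT and at 27046, 26218 and 25986 in confined WT libraries. KO libraries stood at 311, 257 and 277 without and at 7647, 7494 and 7648 with confinement. Its order was the same as that of *Cxcl1* and *Cxcl2*, with an interaction of -2.02 ± 0.15 on the log2 scale (limma, adjusted p = 4.21e-10).

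*Cxcl5*, a CXCR2 ligand known mainly from epithelial and stromal cells, was scarce, at 0, 0.85 and 3.93 normalized counts in nonconfined WT and at 58.9, 72.0 and 91.2 in confined WT libraries. Values in KO libraries were 1.57, 0 and 0 without and 21.6, 5.33 and 28.2 with confinement. Since only 5 and 2 reads stood behind the nonconfined groups, no fold of means is given. The interaction of -1.59 ± 0.79 on the log2 scale did not pass the threshold (limma, adjusted p = 0.157), although confined KO libraries were below confined WT libraries by 2.20 ± 0.56 (adjusted p = 0.00348). The interaction passed the threshold without nonconfined WT replicate 3, at -2.21 (limma, adjusted p = 0.0387), and with a pseudocount of 5, at -1.68 (adjusted p = 0.0152), with a range from 0.0152 to 0.816 over the settings.

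The 4 ELR members were called higher with confinement in KO cells too, and the rise was lower than in WT by the test of the interaction for *Cxcl1*, *Cxcl2* and *Cxcl3*. The increase in mean normalized counts in KO cells was 5.4% ± 0.20 (SE, n = 3) of that in WT cells for *Cxcl1*, 19.5% ± 0.59 for *Cxcl2*, 27.9% ± 0.40 for *Cxcl3* and 24.7% ± 9.95 for *Cxcl5*. The share for *Cxcl1* lay below those of *Cxcl2* and *Cxcl3* by more than their errors, and the error of *Cxcl5* spans both of the latter. These shares were not compared by a test.

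The interferon-inducible genes showed little of the rise in KO cells. *Cxcl10*, a CXCR3 ligand induced by type I and type II interferons, was at 429, 412 and 460 normalized counts in nonconfined WT and at 44120, 42419 and 42869 in confined WT libraries. The KO values were 610, 542 and 571 without and 864, 899 and 841 with confinement. The KO groups did not overlap, but their log2 fold change of 0.60 ± 0.08 stayed under the threshold of 1, against 6.63 ± 0.08 in WT cells. The interaction was -6.04 ± 0.11 (limma, adjusted p = 4.4e-20).

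*Cxcl9*, which responds mainly to interferon gamma, was at 3.05, 10.2 and 5.90 normalized counts in nonconfined WT and at 305, 283 and 303 in confined WT libraries. Values in KO libraries were 4.70, 7.45 and 3.88 without and 10.8, 6.4 and 10.9 with confinement, and these groups overlapped, with a log2 fold change of 0.72 ± 0.29 against 5.46 ± 0.29 in WT cells. The interaction was -4.74 ± 0.41 on the log2 scale (limma, adjusted p = 9.04e-09).

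*Cxcl11*, the remaining CXCR3 ligand, was at 3.05, 0 and 0 normalized counts in nonconfined WT and at 2356, 2163 and 2184 in confined WT libraries. In KO libraries it was at 4.70, 3.72 and 3.88 without and at 8.63, 17.1 and 9.11 with confinement. The KO groups did not overlap, but their difference of 1.25 ± 0.37 on the log2 scale was lost at 0.96 without confined KO replicate 2 (limma, adjusted p = 0.00938 with and 0.0641 without it, the latter being the highest over the settings and 0.000124 the lowest). The call was also lost with a pseudocount of 5, at 0.83, and in a fit of the compared conditions alone (adjusted p = 0.0545), and in each of these 3 cases 5 of the 9 genes were called higher in KO cells. The interaction of -9.21 ± 0.53 was the most negative of the 9 genes (adjusted p = 9.21e-12).

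The increase in KO cells amounted to 0.689% ± 0.061 (SE, n = 3) of that in WT cells for *Cxcl10*, 1.39% ± 0.63 for *Cxcl9* and 0.336% ± 0.12 for *Cxcl11*. Without confined KO replicate 2 the share for *Cxcl11* was 0.214%. These shares lay below that of each of the 4 ELR members, which was not tested.

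*Cxcl16*, whose product is both a chemokine and a scavenger receptor, was already present in nonconfined cells, at 2515, 2619 and 2535 normalized counts in WT and 2528, 2485 and 2583 in KO libraries. With confinement it was at 9509, 8930 and 9231 in WT and at 3057, 3076 and 3130 in KO libraries. The confined libraries of both genotypes lay above the nonconfined ones, with a log2 fold change of 1.85 ± 0.05 in WT and of 0.29 ± 0.05, under the threshold, in KO cells, and the increase in KO cells was 8.33% ± 0.58 (SE, n = 3) of that in WT cells. The interaction was -1.56 ± 0.07 on the log2 scale (limma, adjusted p = 1.73e-13).

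*Pf4*, which encodes a chemokine stored in platelet granules, was at 369, 378 and 326 normalized counts in nonconfined WT and at 928, 867 and 904 in confined WT libraries. In KO libraries it was at 330, 344 and 346 without and at 793, 734 and 745 with confinement. The groups of both genotypes rose without overlap, with a log2 fold change of 1.33 ± 0.08 in WT and 1.15 ± 0.08 in KO cells, and the interaction of -0.18 ± 0.11 did not pass the threshold (limma, adjusted p = 0.278) and was 0.01 on libraries scaled to the same total. The increase in KO cells was 77% ± 4.85 (SE, n = 3) of that in WT cells.

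*Ppbp*, the neighbour of *Pf4* that encodes pro-platelet basic protein, whose processed form also carries the ELR motif and acts on CXCR2, was the only gene of 5 other CXC ligands that passed the filter. It was at 87.6, 117 and 115 normalized counts in nonconfined WT and at 4369, 4042 and 4259 in confined WT libraries. In KO libraries it was at 172, 195 and 134 without and at 5555, 5446 and 5892 with confinement, above the confined WT libraries without overlap, a difference of 0.41 ± 0.26 that did not pass the test (limma, adjusted p = 0.226). Errors of the log2 differences of *Ppbp* pool the spread of all 18 libraries, and the LPS libraries ran from 1611 to 4033. These tests therefore do not measure the spread of the confined and nonconfined groups alone. The log2 fold changes of 5.31 ± 0.26 and 5.08 ± 0.26 gave an interaction of -0.22 ± 0.37 (limma, adjusted p = 0.715), and the increase in mean normalized counts in KO cells was 133% ± 4.52 (SE, n = 3) of that in WT cells, above the shares of the 4 ELR members, which was not tested. The 10 megakaryocyte and platelet markers summed to 2244, 1912 and 2016 in nonconfined WT and 1893, 1946 and 1978 in confined WT, 2532, 2549 and 2567 in nonconfined KO and 2581, 2562 and 2574 in confined KO libraries. *Gp1bb* was the most abundant of them summed over the 18 libraries, but not in every group. Over the LPS libraries its mean was 838, against 878 for *Itga2b*. *Itga2b* lay between 450.2 and 1287 and *Vwf* between 363 and 911 normalized counts. *Gp9*, a platelet glycoprotein gene that was not tested, was at 0 in all 3 confined WT libraries and did not exceed 21.2 in any library. Of the 8 of these markers tested, 1 was called higher and 2 lower with confinement in WT cells, and 1 and 2 in KO cells. In WT these were *Tubb1*, by 1.02 ± 0.25, and the scarce *Gp1ba* and *Gp5*, and in KO *Vwf*, by 1.02 ± 0.13, and *Itga2b* and *Gp5*. In confined cells *Gp1ba* was called higher in KO than in WT. Their part in the results on *Pf4* and *Ppbp* was not tested. With LPS, labels averaged, *Ppbp* rose by 4.31 ± 0.18. It was at 3805, 1614 and 2810 in the LPS libraries labelled WT and at 1611, 4033 and 3031 in those labelled KO, highest in WT replicate 1 and KO replicate 2.

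*Cxcl14* did not exceed 4.58 normalized counts in any library and was not tested. Of the other ligands, *Cxcl13* and *Cxcl17* were at 0 in all 18 libraries, and *Cxcl12* and *Cxcl15* did not exceed 4.74 and 2.29 normalized counts. These genes were not detectable, or barely so, at this depth.

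**Figure D2:**
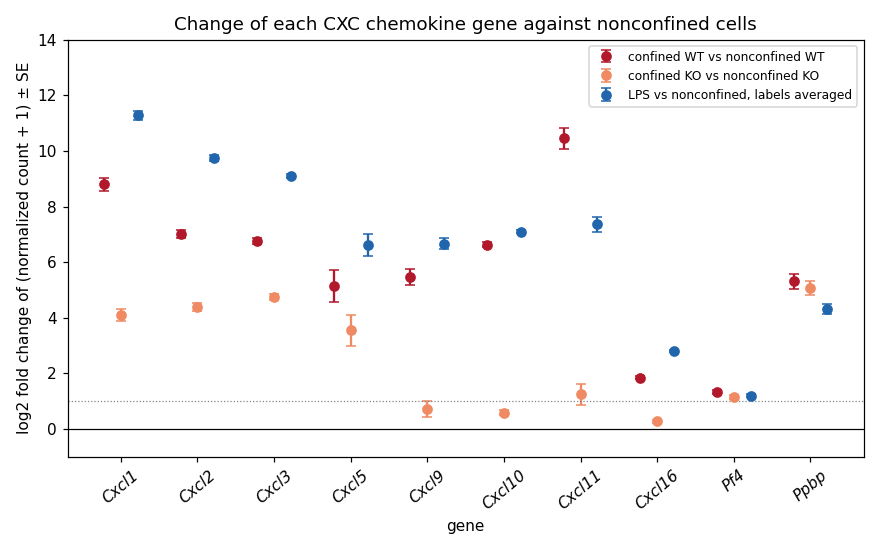
Log2 fold change of normalized count plus 1, with its standard error, against nonconfined cells for confined WT, confined KO and LPS-treated cells; the dotted line marks the threshold of 1. *Cxcl9*, *Cxcl10* and *Cxcl16* lie under the threshold in KO cells, at 0.72, 0.60 and 0.29.

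The genotypes were also compared within each condition. These comparisons share libraries with those above. In nonconfined cells, 1 of the 9 genes was called higher in KO and 0 lower, beside 0.85% and 0.302% of all genes tested. This was *Cxcl11*, by 1.67 ± 0.37 on the log2 scale (limma, adjusted p = 0.00746), a call that rested on 14 reads against 4 and was lost without nonconfined WT replicate 2 or 3, at 1.34 in either case, as well as with edgeR and DESeq2 on the reads. The adjusted p ranged from 1.74e-05 to 0.199 over the settings. *Cxcl10* stood 0.40 ± 0.08 above WT in nonconfined KO libraries, which did not overlap the WT libraries, but this is under the threshold of 1. In confined cells, 8 of the 9 genes were called lower in KO and 0 higher, where 7.31% and 2.79% of all genes were called. *Pf4* was the exception, at -0.25 ± 0.08. *Cxcl5*, *Cxcl9* and *Cxcl11* did not exceed 28.25, 10.94 and 17.06 normalized counts in confined KO libraries. They passed the filter through groups where they were higher, so their calls were in part set by it. The mean level in confined WT cells was 17.5-fold that in confined KO cells for *Cxcl1*, 4.93-fold for *Cxcl2*, 3.48-fold for *Cxcl3*, 49.7-fold for *Cxcl10* and 2.99-fold for *Cxcl16*.

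LPS served as the reference for activation by a microbial ligand, read against the same nonconfined libraries as confinement but on the following day. Of the 9 genes tested, 9 were called higher with LPS than in nonconfined cells, labels averaged, and 0 lower, where 15.6% and 13.4% of all genes tested were called. The limit that the filter sets for genes low in nonconfined cells holds here too. The count was again 9 without 4 LPS libraries in doubt, replicates 1 and 3 of each label, whose *Ddx3y* counts were at odds with the label or lay between those of the other LPS libraries, a choice made after seeing the data. On libraries scaled to the same total it was 8, since *Pf4* was then at 0.71 on the log2 scale. Over the 6 LPS libraries, *Cxcl2* had a mean of 92410 and *Cxcl3* of 142400 normalized counts. The mean level was 2560-fold that of nonconfined cells for *Cxcl1*, 866-fold for *Cxcl2*, 544-fold for *Cxcl3* and 135-fold for *Cxcl10*, and 2.31-fold for *Pf4*. *Cxcl2* was at 114072, 71695 and 91899 in the libraries labelled WT and at 70749, 113430 and 92608 in those labelled KO, so that its highest LPS libraries were WT replicate 1 and KO replicate 2. The sums of the eosinophil markers were also highest in these 2 libraries and lowest in WT replicate 2 and KO replicate 1, at 47073, 26712 and 37510 in those labelled WT and 26714, 47312 and 38058 in those labelled KO. The neutrophil markers summed to 311383, 290166 and 293756 and to 277113, 315414 and 295874. The part of these cells in the spread of *Cxcl2* and *Ppbp* was not tested.

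Between the labels of LPS-treated cells, 0 of the 9 genes were called higher and 0 lower, and so were 0% and 0% of all genes tested with limma. At an unadjusted p under 0.05, 890 genes and 0 of the 9 passed. With edgeR and DESeq2 on the reads, 0 genes were called, and 812 and 831 had an unadjusted p under 0.05. Because the labels of these libraries are in doubt, this says nothing about cPLA2 in LPS-treated cells. Without the 4 libraries in doubt, 1 library per label is left, with a spread borrowed from the other groups. *Cxcl2* was then 0.66 higher in the library labelled KO on the log2 scale, at 113430 against 71695 normalized counts. All LPS libraries together ran from 70749 to 114072, a spread that this comparison does not measure.

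Confined cells were set against LPS-treated cells of the same label, which were collected later after their stimulus, so that the times differ. These comparisons share libraries with those above. In WT, 1 of the 9 genes was called higher with confinement and 4 lower, where 6.32% and 7.51% of all genes were called. The 4 were *Cxcl1*, *Cxcl2*, *Cxcl3* and *Cxcl9*. Without the 4 libraries in doubt 1 was called higher and 3 lower, as *Cxcl9* at -1.04 then missed the test (limma, adjusted p = 0.117, with a range from 5.55e-21 to 0.117 over the settings), and 3 were lower on libraries scaled to the same total. Against both LPS groups averaged 1 was higher and 5 lower. The added gene was *Cxcl5*, at -1.11 ± 0.56 against its own label (limma, adjusted p = 0.11), which passed the threshold in 5 settings, with adjusted p from 0.00166 to 0.589 over all of them. Confined WT cells held 0.632 times the mean *Cxcl10* level of both LPS groups, 0.451 times that of *Cxcl9*, 0.185 times that of *Cxcl3*, 0.147 times that of *Cxcl1* and 0.134 times that of *Cxcl2*. *Cxcl11* ran the other way. Its libraries labelled LPS WT were at 421, 475 and 472 normalized counts and those labelled LPS KO at 599, 437 and 431, all below the confined WT libraries, which had 4.73 times the mean of both LPS groups. Against the LPS libraries labelled WT alone, the log2 difference was 2.29 ± 0.37 (limma, adjusted p = 2.81e-05). In KO, 0 of the 9 were called higher and 8 lower, where 10.4% and 12.6% of all genes were called, and *Pf4* was again the gene not called. Without the 4 libraries in doubt the count was again 8, and so it was against both LPS groups averaged. On libraries scaled to the same total, *Pf4* turned from -0.15 to 0.30 (limma, adjusted p = 0.00157, with a range from 0.00157 to 0.378 over the settings).

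The conditions had the same order for 7 of the 9 genes, apart from the nonconfined groups. How many of all genes tested share this order was not counted, so the number only describes the members. For *Cxcl1*, *Cxcl2*, *Cxcl3*, *Cxcl5*, *Cxcl9*, *Cxcl10* and *Cxcl16*, both LPS groups were highest and overlapped each other, followed by confined WT and then confined KO cells, each without overlap with the next higher group. The nonconfined groups came last and overlapped each other except for *Cxcl10*, and the confined KO libraries of *Cxcl9* overlapped them. *Cxcl11* had confined WT cells in front, then both LPS groups, which overlapped, and then confined KO, nonconfined KO and nonconfined WT cells, without overlap. For *Pf4* the order was confined WT, LPS labelled KO, LPS labelled WT and confined KO cells, in which neighbours overlapped, and both nonconfined groups lay below and overlapped each other.

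Levels between 11 CXC ligand genes, the 10 members and *Ppbp*, were compared per kilobase of exon in GENCODE, which is not the annotation the reads were counted on. In nonconfined WT cells *Cxcl16* led with 499 ± 10.8 (SD, n = 3) normalized counts per kilobase, with *Cxcl10* at 192 ± 10.8 and *Pf4* at 145 ± 11.2. The gene on which *Pf4* reads were counted spans 90920294 to 90921243 on chromosome 5, which is shorter than its 2462 exon bases in GENCODE. Its value per kilobase is therefore too low for the counted gene, and its place among these 3 genes depends on the annotation. In confined WT cells *Cxcl10* led with 19156 ± 392, ahead of *Cxcl3* with 7553 ± 159 and *Cxcl2* with 5967 ± 208. In confined KO cells *Ppbp* led with 4332 ± 179, and *Cxcl10* was at 386 ± 12.9. In LPS libraries labelled WT *Cxcl2* was at 44758 ± 10251 and *Cxcl3* at 40452 ± 5137, which do not differ beyond their spread, and *Cxcl10* was at 29791 ± 3291. The 10 genes took up 0.0109% ± 0.00031 (SD, n = 3) of all normalized counts in nonconfined WT, 0.247% ± 0.00219 in confined WT, 0.0421% ± 0.00071 in confined KO and 0.713% ± 0.093 in the LPS libraries labelled WT.

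The CXC receptors bind such ligands, and bulk RNA does not show which cells of the culture carried them. Of 8 receptor genes, 4 passed the filter, and 1, *Cxcr5*, was called higher with confinement in WT, 0 in KO cells and 1, again *Cxcr5*, with LPS, labels averaged. In confined cells 1 was called higher and 1 lower in KO than in WT, and in nonconfined cells 0 were called. *Cxcr4*, the receptor of CXCL12, was the most abundant, at 4029, 4114 and 4206 normalized counts in nonconfined WT and 3893, 3911 and 4056 in confined WT libraries. It was at 4890, 4698 and 4629 in nonconfined KO and 5908, 5981 and 6207 in confined KO libraries. Neither confinement nor genotype gave a call for *Cxcr4*, with 0.61 ± 0.04 between the genotypes in confined cells. *Cxcr2*, the receptor of the ELR chemokines and itself a neutrophil gene, was at 375, 379 and 404 in nonconfined WT and at 726, 724 and 756 in nonconfined KO libraries. It was at 363, 364 and 391 in confined WT and at 929, 778 and 916 in confined KO libraries, higher by 1.22 ± 0.08 on the log2 scale (limma, adjusted p = 1.22e-10). In nonconfined cells the difference was 0.93 ± 0.08, under the threshold. The summed neutrophil markers lay higher in the same libraries, and the part of those cells was not tested. *Cxcr5*, the receptor of CXCL13, was at 42.7, 48.6 and 57.0 in nonconfined WT and at 233, 256 and 317 in confined WT libraries, but at 33.4, 14.9 and 55.6 in confined KO libraries. Its interaction was -3.02 ± 0.40 (adjusted p = 5.53e-06). *Cxcr3*, the receptor of CXCL9, CXCL10 and CXCL11, did not exceed 31.7 normalized counts in any library.

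Regulators of these genes were read from lists. Of 12 NF-kB regulators and related genes, 9 were called higher and 0 lower with confinement in WT and 5 and 0 in KO cells, and the interaction was called lower for 8. In confined cells 7 were called lower in KO than in WT, and in nonconfined cells 0 were called. *Nfkbiz*, which encodes a nuclear cofactor of NF-kB, changed by 5.75 ± 0.07 on the log2 scale in WT and by 1.79 ± 0.07 in KO cells. *Tnfaip3*, an inhibitor of the pathway that is also its target, changed by 4.34 ± 0.06 and 1.00 ± 0.06. *Cebpb*, a myeloid transcription factor, changed by 2.16 ± 0.08 and 1.46 ± 0.08.

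Of 13 interferon regulators, 12 were tested, and 5 were called higher and 0 lower with confinement in WT, against 1 and 2 in KO cells. *Irf7*, a transcription factor of the type I interferon response, rose by 1.31 ± 0.05 on the log2 scale in WT and fell by 1.29 ± 0.05 in KO cells. *Ifnb1*, which encodes interferon beta, was at 3.05, 5.12 and 5.90 normalized counts in nonconfined WT and at 105, 92.6 and 103 in confined WT libraries. It was at 0, 1.86 and 3.88 in nonconfined KO and at 11.9, 6.4 and 6.38 in confined KO libraries. *Ifnb1* rose by 4.19 ± 0.42 on the log2 scale in WT and by 1.88 ± 0.42 in KO cells, and the interaction was -2.30 ± 0.59 (limma, adjusted p = 0.00594). *Ifng* did not exceed 4.24 normalized counts in any library. In confined cells, 6 of the 12 were called lower in KO than in WT and 0 higher, 6 had a lower interaction, and in nonconfined cells 0 were called. With LPS, labels averaged, 8 of these 12 and 11 of the 12 NF-kB genes were called higher and 0 lower.

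Proteases that can trim or shed chemokines formed a further list. Of 7, 0 were called higher and 3 lower with confinement in WT, and 0 and 1 in KO cells. *Dpp4*, which clips the amino terminus of CXCL10, fell by 1.93 ± 0.15 on the log2 scale in WT and fell by 1.90 ± 0.15 in KO cells. *Mmp9*, a granulocyte gelatinase, was at 369, 364 and 405 normalized counts in confined WT and at 2524, 2093 and 2284 in confined KO libraries. It was the 1 protease called higher in KO in nonconfined cells, by 2.03 ± 0.26, and 1 of 2 in confined cells, with *Ctsg*, whose interaction of 1.02 ± 0.15 was the 1 called. With LPS, labels averaged, 1 was called higher, *Adam17*, and 1 lower, *Mmp9*. Against nonconfined cells of the same label, *Mmp9* was called only for label KO, at -2.26 ± 0.26, and was at -0.20 ± 0.26 for label WT. *Adam10*, which sheds CXCL16, was between 2628 and 3682 normalized counts in all libraries.

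Genes whose pattern over the 18 libraries was most like that of each member were sought. The 10414 candidates had a single symbol and a mean of at least 100 normalized counts. Members are left out of the ranks given here, and *Cxcl2* and *Cxcl3* had an r of 0.997 with each other. Pearson's r is a description here, because the libraries fall into 6 groups. *Cxcl1* was most like *Atf3*, *Il1a* and *Slc7a2* (r of 0.9978, 0.9971 and 0.9968). *Cxcl2* was most like *M6pr*, *Ccdc71l* and *Ccl9* (0.9983, 0.9974 and 0.9966), and *Cxcl3* most like *M6pr*, *Ccl9* and *Crk* (0.9978, 0.9961 and 0.9954). *Cxcl10* was most like *Socs3*, a feedback inhibitor of cytokine signalling, *Cd83*, a marker of mature DCs, and *Sp140* (0.9993, 0.9989 and 0.9982). *Cxcl16* was most like *Nfkb2*, *Clic4* and *Birc3*, and *Pf4* most like *Rbms1*, *Arih1* and *Il1rap*. *Cxcl9* was most like *Appl1*, *Dennd5a* and *F11r*, *Cxcl11* most like *Csrnp1*, *Gja1* and *Gm7334*, and *Cxcl5* most like *Dcaf10*, *Crk* and *Rad23b*, with a highest r of 0.9956, 0.9874 and 0.9839.

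Most of the CXC ligand genes lie in a pair of clusters on chromosome 5 (GRCm39). *Cxcl5*, *Ppbp*, *Pf4*, *Cxcl3*, *Cxcl15*, *Cxcl1* and *Cxcl2* lie in that order on the plus strand at chr5:90907186-91053797. *Cxcl9*, *Cxcl10* and *Cxcl11* lie on the minus strand at chr5:92469206-92513344, 1.42 Mb further on, and *Cxcl10* and *Cxcl11* lie within the span of *Art3* on the opposite strand. *Cxcl16* lies on chromosome 11 and *Cxcl14* on chromosome 13. Of these 7 genes of the first cluster, *Cxcl1*, *Cxcl2* and *Cxcl3* had a called interaction, *Cxcl5*, *Ppbp* and *Pf4* did not and *Cxcl15* was not tested, which is no test that these genes differ.

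**Figure D3:**
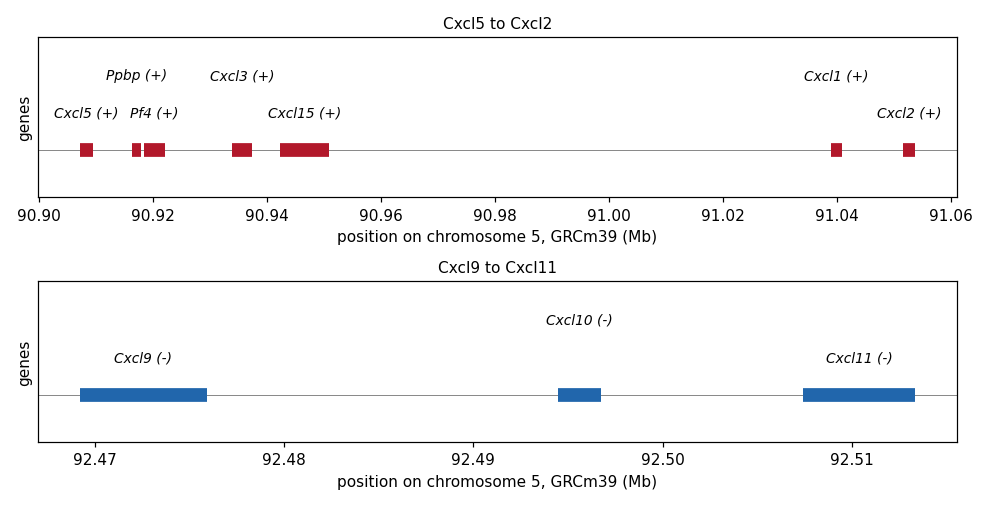
Positions of 10 CXC chemokine genes in a pair of clusters on chromosome 5 in GRCm39 coordinates, in Mb, with plus-strand genes in red and minus-strand genes in blue. *Cxcl5* to *Cxcl2* span 147 kb and *Cxcl9* to *Cxcl11* 44.1 kb.

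Promoters from RefSeq (table build GRCm38.p6), 250 bases before to 50 after the start, were given for 7 of the 10 members and searched on both strands for 3 motifs. The NF-kB motif was GGGNNNTTCC, the ISRE, an element bound by interferon-activated factors, was TTTCNNTTTC, and the GAS, an element of interferon gamma responses, was TTCNNNGAA. The NF-kB motif was in 4 of the 7 promoters, those of *Cxcl1*, *Cxcl2*, *Cxcl3* and *Cxcl10*, and in 5.56% of the 32851 promoters of the table. The ISRE was in those of *Cxcl10* and *Cxcl14* and in 3.44% of all, and the GAS in that of *Cxcl14* and in 8.3% of all. No match was found in this window for *Cxcl9* and *Pf4*, nor for *Ppbp*, which is not a member. No promoter was given for *Cxcl5*, *Cxcl11* and *Cxcl16*. *Cxcl1*, *Cxcl2* and *Cxcl3* are closely related and share a stretch given below, so their NF-kB matches are not independent of each other. The 250 bases before the start are shown for the 4 genes with an NF-kB match, with all matches in capitals, and matches on opposite strands that overlap run together. They were placed on GRCm39 by exact match at chr5:91038854-91039103, chr5:91051508-91051757 and chr5:90933710-90933959 on the plus strand and at chr5:92496749-92496998 on the minus strand.
Cxcl1: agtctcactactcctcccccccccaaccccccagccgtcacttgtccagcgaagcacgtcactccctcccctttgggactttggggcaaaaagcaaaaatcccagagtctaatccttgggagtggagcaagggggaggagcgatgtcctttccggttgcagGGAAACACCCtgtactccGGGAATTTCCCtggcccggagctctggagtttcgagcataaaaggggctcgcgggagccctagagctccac
Cxcl2: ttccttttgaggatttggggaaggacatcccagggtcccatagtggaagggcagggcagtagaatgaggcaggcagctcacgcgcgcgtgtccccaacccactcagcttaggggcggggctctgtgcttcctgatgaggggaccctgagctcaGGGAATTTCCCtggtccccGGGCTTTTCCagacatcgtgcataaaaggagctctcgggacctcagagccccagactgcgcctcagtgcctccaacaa
Cxcl3: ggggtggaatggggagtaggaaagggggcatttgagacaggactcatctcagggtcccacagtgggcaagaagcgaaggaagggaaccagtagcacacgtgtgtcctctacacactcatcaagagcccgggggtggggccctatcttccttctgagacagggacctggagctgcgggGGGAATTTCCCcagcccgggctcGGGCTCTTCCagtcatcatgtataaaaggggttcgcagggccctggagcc
Cxcl10: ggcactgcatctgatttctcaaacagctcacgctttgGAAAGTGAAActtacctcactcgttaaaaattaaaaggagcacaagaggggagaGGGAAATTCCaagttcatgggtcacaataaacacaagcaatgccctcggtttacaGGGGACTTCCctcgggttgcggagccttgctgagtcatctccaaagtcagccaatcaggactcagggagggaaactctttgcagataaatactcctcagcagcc
In *Cxcl1*, *Cxcl2* and *Cxcl3* the capitals include the same stretch GGGAATTTCC, whose first base lies at -71, -97 and -73 from the start. In *Cxcl10* the ISRE match begins at -213, and the NF-kB matches begin at -159 and -104. A match is a stretch of letters and does not show that a factor was bound in these cells.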

How the data were processed

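The authors mapped stranded, paired-end poly(A) reads to mm39 (GRCm39) with STAR 2.7.5a, counted them with featureCounts 1.5.0 on Mouse FAST DB v2021_2 genes and divided the counts by DESeq2 size factors, using R 3.5.3. The deposited signal values are these normalized counts. Dividing each library by its lowest positive value gave whole reads for 100% of values (tolerance 0.001). From these values, log2(normalized count + 1) was fitted with limma 3.58.1 (trend) over all 18 libraries with a mean per condition, and p-values were adjusted by Benjamini-Hochberg over the 17875 genes tested. edgeR and DESeq2 on the recovered reads, other pseudocounts, filters and scalings, a replicate block and leaving out each library were alternatives. Exon lengths, joined over all transcripts of a gene, came from GENCODE vM39. Scripts were tested on simulated data. Members and lists were chosen with earlier results of these data known. Named genes were all members, genes of the lists, and the 3 genes most like each tested member, other members left out. *Art3* was named for its position. Single values of some list genes are not reported here.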

Additional observations from a re-analysis of the deposited data

Results flagged for a closer look

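The change under confinement differed between WT and KO cells, by the test of the interaction itself (limma), for 7 of the members and for 1 receptor. On the log2 scale the difference was -4.68 for *Cxcl1*, -2.62 for *Cxcl2*, -2.02 for *Cxcl3*, -4.74 for *Cxcl9*, -6.04 for *Cxcl10*, -9.21 for *Cxcl11* and -1.56 for *Cxcl16*, and -3.02 for *Cxcr5*. All 3 libraries of confined KO cells lay below all 3 of confined WT cells for each of these genes. Since the genes were picked by their interaction, this adds no support to it, and the share over all genes tested was not counted. The summed neutrophil, eosinophil and mast cell markers and the Y-linked genes differed between the same groups, and their part in these differences was not tested. Groups of 3 libraries were not searched for single libraries that stand apart.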

How the results depend on the processing

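Of 534 counts of called members under the alternatives, 528 were within 1.5 times the reported count, and of 2322 values of single genes, 2276 kept their direction and their side of the threshold. The exceptions among the counts were all the 1 member called higher in nonconfined KO cells, *Cxcl11*, which became 0 with a pseudocount of 5, with edgeR, with DESeq2 and in a fit of the compared conditions alone, and ranged from 0 to 1 when a library was left out. Its log2 fold change was 0.63 with that pseudocount, 1.76 with edgeR, 1.86 with DESeq2 and 1.67 in the fit of the compared conditions, as reported; the cause was not tested. On libraries scaled to the same total, *Pf4* in confined KO against LPS cells labelled KO turned from -0.15 to 0.30 (limma, adjusted p = 0.00157). Without the 4 LPS libraries in doubt, which sets 1 library against 1, *Cxcl2* between LPS labels turned from -0.01 to 0.66. The cause was not tested. The same-total scaling moved the median of all genes from -0.01 to -0.23 with confinement in WT, from 0.02 to -0.46 with LPS, from 0.05 to 0.24 for the interaction, from 0.04 to 0.19 for confined KO against WT, and from -0.02 to 0.26 and from 0.02 to 0.46 for confined against LPS cells of label WT and KO. It moved, for confinement in WT and for LPS, the share of higher among called genes from 59.9% to 43% and from 53.8% to 28.3%. It moved that share from 14.4% to 33.6% for the interaction, from 27.6% to 41.2% for confined KO against WT, and from 45.7% to 68.1% and from 45.3% to 71.6% for confined against LPS cells of label WT and KO. Libraries with the same replicate number were not paired, since correlations of their deviations ranged from -0.61 to 0.23 and in no comparison were all above 0.1; with the replicate block 9 members were called higher with confinement in WT and 6 in KO cells, as without it, and no other member call changed.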
